A study of Homo sapiens with 12 samples.

Results

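Carbonic anhydrases and bicarbonate transporters were followed in RNA-seq of MDA-MB-231, an established human cell line from a triple-negative breast cancer. The genes were the 7 rows of the deposited table with the symbols CA2, CA9, CA12, CA13, SLC4A2, SLC4A4 and SLC4A7, out of 60664 genes, and all 7 had enough counts to be tested in every comparison. Wildtype (WT) cells without treatment were in normoxia, WT cells treated with hypoxia were held for 24 hr at 1% O2 in a flushed chamber, and CCAR2-/- (KO) cells were untreated in normoxia, with 4 libraries per group and 12 in all. KO cells in hypoxia were not analysed here. The KO was made with a lentiviral CRISPR vector carrying a guide against CCAR2, which encodes DBC1, and whether the KO cells came from a single clone is not given in the sources used here. Nothing in the labels says that the libraries of a group came from separate cultures, so that p-values measure the spread between libraries, which may be technical. The study's methods speak of biological replicates, but in numbers that differ from those of the libraries here, so that what a library stands for is uncertain.

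Cells that run on glycolysis produce acid as lactate, protons and CO2, and they keep the cytosol neutral by exporting acid and importing bicarbonate. Carbonic anhydrases interconvert CO2 and water with bicarbonate and a proton. CA2 and CA13 work in the cytosol, while CA9 and CA12 are anchored in the plasma membrane with the catalytic domain outside the cell, and CA9 is a well-known target of the hypoxia-inducible factor HIF1 that is used as a marker of hypoxic tumor tissue. Of the SLC4 family, SLC4A2 (AE2) exchanges chloride for bicarbonate, and SLC4A4 (NBCe1) and SLC4A7 (NBCn1) carry sodium and bicarbonate together, SLC4A4 with net charge and SLC4A7 without.

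The deposited values are estimated counts per gene that the authors did not scale to library size, and their sum per library lay between 68599412 and 213743693. They were scaled here to CPM, each count relative to its library's total, with edgeR's TMM factors over the 12 libraries. CCAR2 was at 146 ± 3.11 CPM in WT normoxia, 149 ± 4.95 CPM in WT hypoxia and 57.8 ± 2.81 CPM in KO cells (SD, n = 4 libraries each), so that its transcript was reduced in the KO libraries and was still present. According to the paper, the knockout was checked by sequencing of the edited region, and loss of the protein by Western blot. The mesenchymal markers of the line were high, with VIM at 5103 CPM in WT normoxia, and of 7 luminal markers 2 were above 10 CPM in each group, KRT8 at 878 CPM and ERBB2 at 91.0 CPM in WT normoxia. ESR1, PGR and CDH1, also luminal markers, stayed under 0.31 CPM in every group mean. Of 5 immune markers, only CD68 was above 10 CPM in any group, and of 6 endothelial and fibroblast markers only COL1A1 was. In bulk RNA, fewer cells of a type and less RNA per cell cannot be told apart.

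The first comparison asked how 24 hr of hypoxia changed WT cells. CA9 and CA12, the carbonic anhydrases that face the outside of the cell, rose under hypoxia, and SLC4A7, the electroneutral sodium-bicarbonate cotransporter, fell. CA9 went from almost no transcript to 4.90 ± 0.399 CPM, a 74.0-fold difference. CA12 rose 1.45-fold, from 4.68 ± 0.585 to 6.84 ± 0.803 CPM, and SLC4A7 went from 56.5 ± 5.66 to 38.2 ± 5.29 CPM, which is 0.671-fold (SD, n = 4). CA2, CA13, SLC4A2 and SLC4A4 were not called. Marker sums moved as well, from 8845 to 9108 CPM in WT normoxia against 8085 to 8690 CPM in hypoxia for 6 mesenchymal markers, from 898 to 1014 against 1026 to 1111 CPM for 7 luminal markers, and from 87.4 to 97.3 against 97.6 to 114.8 CPM for 5 immune markers, almost all CD68. The endothelial and fibroblast sums overlapped, at 15.8 to 18.3 and 17.0 to 21.0 CPM. Markers of a list did not all move together. In group means, KRT8 rose to 960 CPM and ERBB2 to 100 CPM. GATA3 fell from 5.93 to 5.10 CPM and FOXA1 from 1.34 to 0.981 CPM. Of the mesenchymal markers, VIM fell to 4591 CPM and CAV1 from 910 to 725 CPM. AXL rose from 1141 to 1210 CPM and MSN from 768 to 777 CPM. The part of these marker shifts in the result was not tested. Calls required an adjusted p-value under 0.05 (Benjamini-Hochberg over all genes tested, from the quasi-likelihood test of edgeR) together with a log2 fold change of 0.5 or more in either direction. Of the 7 genes, 2 were called higher and 1 lower, beside 5.83% of all 21776 genes tested called higher, 1.43% called lower and 7.26% called in either direction. In 4 of the 7, CA9, CA12, CA13 and SLC4A7, the libraries of both groups did not overlap, as in 26.4% of all genes tested, and an exact permutation of log2 CPM (two-sided) gave each of the 4 p = 0.0286, which is the lowest value possible with 4 libraries per group.

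CA9 (ENSG00000107159, GRCh38 chromosome 9, 35673856 to 35681159, plus strand) was at 0.0389, 0.0948, 0.0671 and 0.0589 CPM in WT normoxia replicates 1 to 4. These values rest on 7, 17, 14 and 9 counts. Under hypoxia, CA9 was at 4.94, 5.40, 4.43 and 4.85 CPM, from 382 to 957 counts. All 4 hypoxia libraries were far above all normoxia libraries, and the hypoxia libraries were close to each other. The log2 fold change was 6.21 (standard error, SE, 0.22, 95% interval 5.73 to 6.69, adjusted p = 8.74e-08 from edgeR), which ranked 3 from the top among the 21776 genes tested. The normoxia level is known less well than the hypoxia level, and leaving out single libraries moved the log2 fold change between 6.03 and 6.45. In GENCODE v29, exons of CA9 share 643 bp with exons of ARHGEF39, a gene on the opposite strand, out of 1670 bp of CA9 exon in all, and whether the counting used strand is not given in the sources used here. ARHGEF39 was at 15.6 ± 0.833 CPM in WT normoxia and 19.3 ± 1.41 CPM in hypoxia (n = 4, SD), with a log2 difference of 0.29 (SE 0.07, adjusted p = 0.0127 from edgeR).

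A hypoxia response element, the site that HIF dimers bind, has the core letters ACGTG or GCGTG, on either strand. These letters were looked for in the RefSeq promoters (GRCh38.p14, from 250 bases before to 50 after a transcript start) of the members. The table held 13 promoters of 5 members, CA9, CA12, SLC4A2, SLC4A4 and SLC4A7. ACGTG occurred in 21.4% and GCGTG in 36.5% of all 35116 promoters in the table, so that a match alone is common. The following stretches of 30 bases, each upstream of a RefSeq start and read 5′ to 3′ on the strand of the gene, are shown because they hold a match in the genes that were called under hypoxia and in SLC4A2, which was not called. Capitals mark the match, and CACGT and CACGC are ACGTG and GCGTG on the opposite strand.
CA9: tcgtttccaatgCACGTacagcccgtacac
CA12: gcggatctcaccCACGCctgccagcagctc
SLC4A7: cggggcggggggGCGTGtcttgcctggccc
SLC4A2: ctccctgcccccACGTGgccaccgctccac
The CA9 stretch is chr9:35673898-35673927, directly before the RefSeq start and within the bounds of the gene in GENCODE v29, and its match begins at position -18 from the start. It was the only match of either motif in the CA9 promoter. The CA12 stretch is chr15:63382063-63382092 on the minus strand, with the match at position -234 from the start, and the promoter held another GCGTG match after the start. The SLC4A7 stretch is chr3:27484477-27484506 on the minus strand, and the SLC4A2 stretch, from an internal start, is chr7:151062455-151062484. Of the 4 SLC4A2 promoters 2 held ACGTG and 4 held GCGTG, of the 5 SLC4A4 promoters 0 and 2, and of the 2 SLC4A7 promoters 0 and 1. The full CACGTG in SLC4A2 reads the same on both strands and is therefore matched on each. Matches were thus present in genes that rose, fell or were not called, and no binding was measured.

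**Figure D1:**
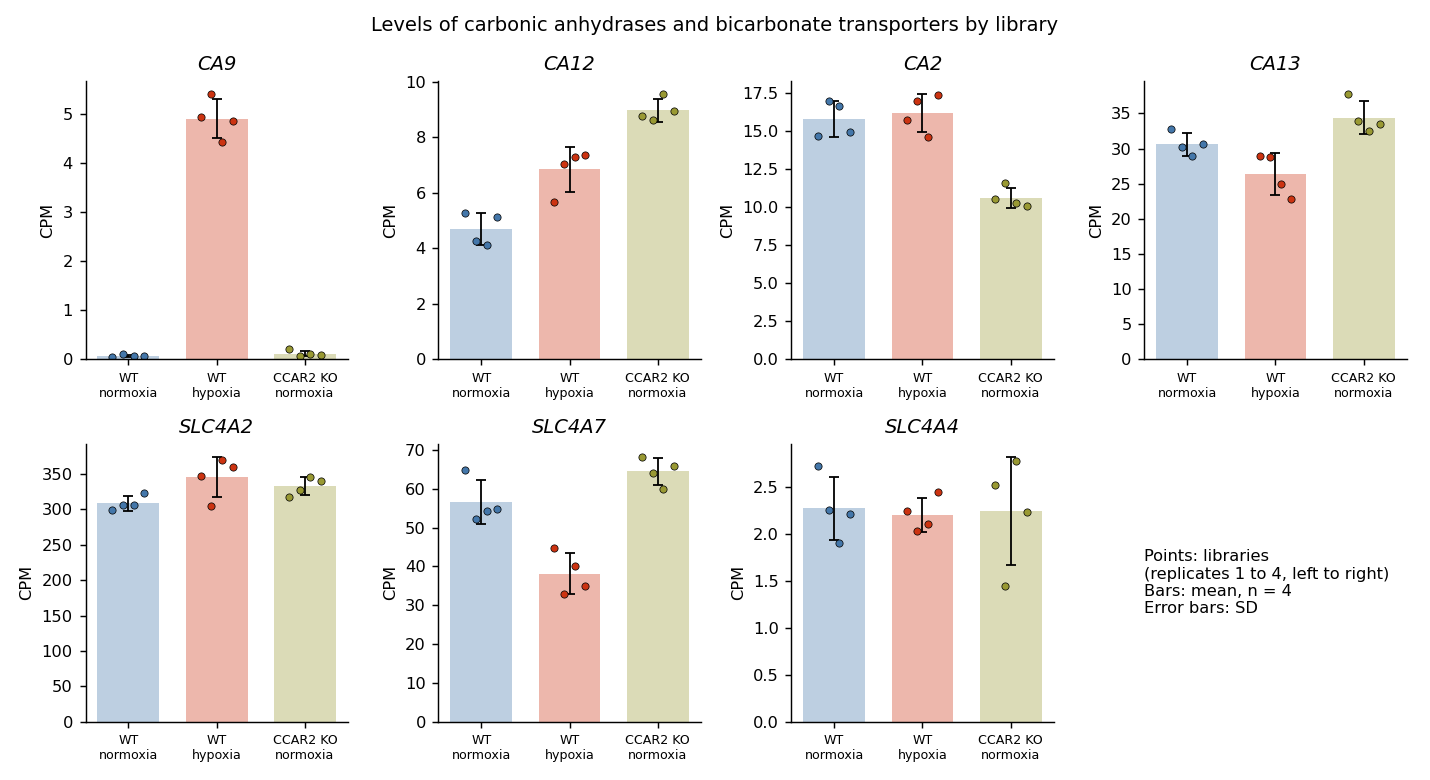
Level of each gene in CPM (vertical axis from 0) in the 3 groups, with 1 point per library, bars for the mean and error bars for the SD over 4 libraries. CA9 stands out in WT hypoxia at 4.43 to 5.40 CPM, CA12 has means of 4.68, 6.84 and 8.96 CPM, CA2 is low in KO cells alone, and SLC4A7 is low in WT hypoxia alone.

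CA12 (ENSG00000074410, chromosome 15, 63321378 to 63382161, minus strand) was at 5.25, 4.24, 4.11 and 5.11 CPM in WT normoxia replicates 1 to 4. Under hypoxia it was at 5.65, 7.03, 7.30 and 7.37 CPM. The hypoxia library closest to normoxia was replicate 1, and it still lay above all 4 normoxia libraries. The log2 fold change was 0.54 (SE 0.12, adjusted p = 0.00827 from edgeR), close to the limit of 0.5. Without WT normoxia replicate 2 it was 0.50, marginally under the limit, and without WT normoxia replicate 3 it was 0.48, so that the call was lost in both cases while the adjusted p stayed at 0.0288 and 0.0296.

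SLC4A7 (ENSG00000033867, chromosome 3, 27372721 to 27484420, minus strand) was at 64.8, 52.1, 54.4 and 54.7 CPM in WT normoxia. It was at 44.7, 32.9, 40.0 and 35.03 CPM under hypoxia. Every hypoxia library was below every normoxia library, with replicate 1 the highest in both groups. The log2 fold change was -0.57 (SE 0.10, adjusted p = 0.00219 from edgeR), and leaving out single libraries gave values from -0.66 to -0.51.

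CA13 (ENSG00000185015, chromosome 8, 85220587 to 85284073, plus strand) was at 32.7, 30.2, 28.9 and 30.6 CPM in WT normoxia and at 28.9, 28.8, 24.98 and 22.8 CPM under hypoxia. The nearest libraries of both groups, at 28.88 and 28.87 CPM, were almost equal, and with RLE in place of TMM scaling the exact permutation test gave p = 0.0571. The log2 fold change was -0.23 (SE 0.08, adjusted p = 0.0741 from edgeR), which did not pass the test. Exons of an antisense gene, AC011773.3, share 191 bp with CA13. CA2 (ENSG00000104267, chromosome 8, 85463852 to 85481493, plus strand) was at 14.7, 17.0, 16.6 and 14.9 CPM in normoxia and at 15.7, 17.0, 14.6 and 17.4 CPM in hypoxia. These ranges overlapped almost fully, and the 95% interval of the log2 difference was -0.15 to 0.20.

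SLC4A2 (ENSG00000164889, chromosome 7, 151057210 to 151076527, plus strand) was at 299 to 324 CPM in normoxia and at 305 to 370 CPM in hypoxia. The groups overlapped through hypoxia replicate 2, the lowest of its group. The log2 fold change was 0.15 (95% interval 0.02 to 0.29, adjusted p = 0.105 from edgeR). Exons of SLC4A2 overlap exons of CDK5 on the opposite strand over 331 bp, and those of the antisense gene AC010973.2 over 714 bp. CDK5 had 15.6 ± 1.64 CPM in normoxia against 16.1 ± 1.88 CPM in hypoxia. SLC4A4 (ENSG00000080493, chromosome 4, 71062667 to 71572087, plus strand) was at 2.73, 2.26, 1.91 and 2.21 CPM in normoxia and at 2.25, 2.03, 2.11 and 2.45 CPM in hypoxia. All 4 hypoxia libraries lay within the range of normoxia, and the 95% interval of the log2 difference was -0.35 to 0.25.

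In the second comparison, KO cells were set against the same WT normoxia libraries to ask what the loss of CCAR2 did without hypoxia. CA12 was higher and CA2, a fast cytosolic isoenzyme, was lower in KO cells. CA12 was at 8.96 ± 0.410 CPM, 1.92-fold of WT, and CA2 at 10.6 ± 0.664 CPM, 0.671-fold of WT (SD, n = 4). CA9 rested on few counts in both groups, and the other genes were not called. Of the 7 genes, 1 was called higher and 1 lower, beside 6.73% of all 21410 genes tested called higher, 2.94% called lower and 9.67% called in either direction. The groups did not overlap in CA12 and CA2, that is in 2 of 7 genes and in 30.8% of all genes tested. Summed markers of other cell types also differed. For 6 endothelial and fibroblast markers the sum was 15.8 to 18.3 CPM in WT normoxia and 24.7 to 28.3 CPM in KO cells. In group means, COL1A1 rose from 14.0 to 20.7 CPM and PECAM1 from 2.56 to 5.51 CPM. VWF fell from 0.326 to 0.169 CPM, CDH5 from 0.0617 to 0.0157 CPM and DCN from 0.0167 to 0 CPM, so that the list did not rise as a whole. For 5 immune markers the sum was 87.4 to 97.3 and 72.5 to 82.9 CPM, almost all CD68. The part of these marker shifts in the result was not tested.

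CA12 was at 8.78, 8.61, 9.55 and 8.93 CPM in KO replicates 1 to 4. The lowest KO library lay well above the highest WT normoxia library, which had 5.25 CPM. The log2 fold change was 0.94 (SE 0.10, 95% interval 0.72 to 1.15, adjusted p = 1.95e-05 from edgeR), and leaving out single libraries gave values from 0.87 to 1.00. CA2 was at 10.6, 11.6, 10.3 and 10.1 CPM in KO cells. No KO library reached the lowest WT normoxia library, at 14.7 CPM. Its log2 fold change was -0.58 (SE 0.07, 95% interval -0.74 to -0.41, adjusted p = 1.03e-04 from edgeR), and the range over left-out libraries was -0.62 to -0.55. For CA12 and CA2, the two-sided exact permutation test gave p = 0.0286, the smallest possible, and 0.0546 after the Benjamini-Hochberg adjustment.

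CA9 was at 0.195, 0.0717, 0.0974 and 0.0838 CPM in KO cells, from 27, 5, 15 and 11 counts. Replicate 1 was the highest of the 8 libraries, replicate 3 lay marginally above the highest WT normoxia library, and replicates 2 and 4 lay within the range of WT normoxia. The log2 difference was 0.80 with a 95% interval of -0.38 to 1.98, and without KO replicate 1 it was 0.38. A difference of CA9 between KO and WT cells was therefore not detectable at these counts.

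CA13 was at 37.7, 33.9, 32.5 and 33.6 CPM in KO cells, and SLC4A7 at 68.2, 64.0, 59.9 and 65.9 CPM. For CA13, 3 of the 4 KO libraries were above all WT normoxia libraries, and for SLC4A7 2 of 4 were, so that the ranges overlapped in both genes. The log2 differences were 0.17 for CA13 (adjusted p = 0.0524 from edgeR) and 0.19 for SLC4A7 (adjusted p = 0.0483 from edgeR), with upper 95% bounds of 0.30 and 0.34, both under the limit of 0.5. For SLC4A2, at 317, 328, 345 and 341 CPM in KO cells, the log2 difference was 0.11 with a 95% interval of 0.02 to 0.20. SLC4A4 was at 2.53, 1.45, 2.78 and 2.24 CPM in KO cells. KO replicate 2, the library with the smallest sum, was the lowest, and the log2 difference was -0.01 with a 95% interval of -0.42 to 0.40.

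**Figure D2:**
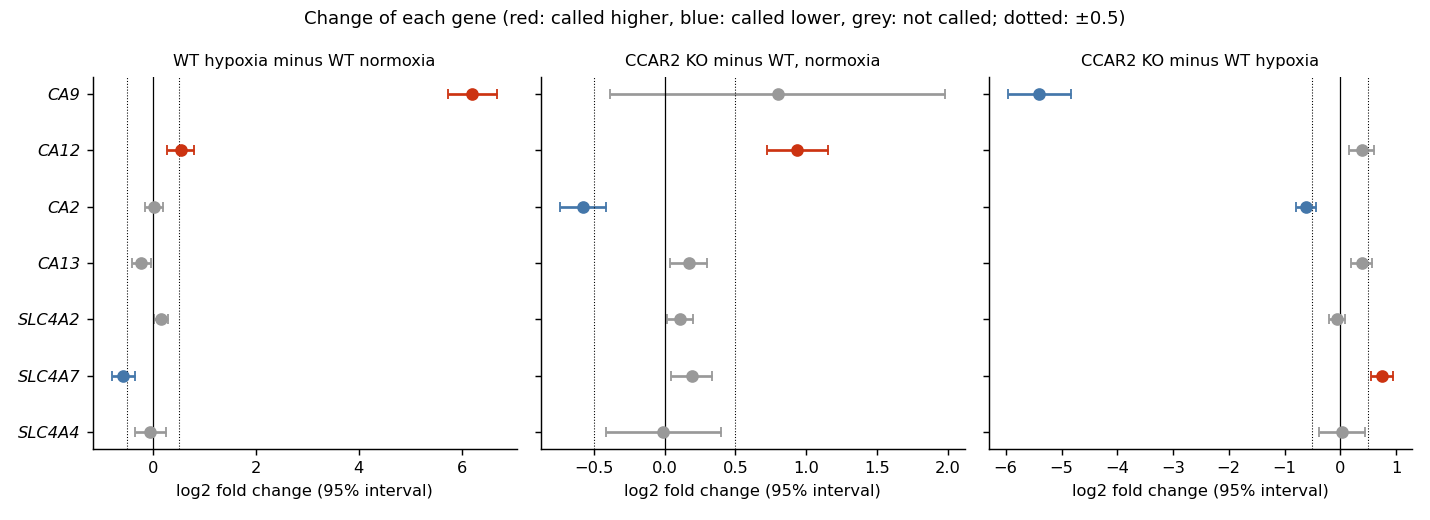
Log2 fold change of each gene (horizontal axis, with the scale differing between panels) with its 95% interval in the 3 comparisons, 4 libraries against 4, with dotted lines at -0.5 and 0.5. Called genes are red for higher and blue for lower. CA9 at 6.21 and -5.39 separates hypoxia from both other groups, while CA12 is called in both comparisons with WT normoxia.

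KO cells were also set directly against WT hypoxia, which tests whether a gene differed between these states. Both preceding comparisons use the same WT normoxia libraries, so the values stand here side by side. CA9 was far lower in KO cells than in hypoxia (log2 fold change -5.39, SE 0.26, adjusted p = 6.35e-08 from edgeR). CA2 was also lower in KO cells (log2 fold change -0.61, SE 0.08), and SLC4A7 was 1.69-fold higher (log2 fold change 0.75, SE 0.09). Of the 7 genes, 1 was called higher and 2 lower in KO cells, beside 7.08% and 7.88% of all 21158 genes tested, or 15.0% in either direction. The groups did not overlap in 5 of the 7 genes, all but SLC4A2 and SLC4A4, and in 35.9% of all genes tested. CA12 and CA13 passed the adjusted p but not the limit on the fold change, with log2 differences of 0.38 (adjusted p = 0.0123) and 0.38 (adjusted p = 0.00389, both from edgeR) in favor of KO cells. For SLC4A2, the log2 difference was -0.06 with a 95% interval of -0.20 to 0.08, and for SLC4A4 it was 0.03 with a 95% interval of -0.38 to 0.44.

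Levels of different genes were compared as CPM per kb of exon, with the union of exons in GENCODE v29 as the length. SLC4A2 was by far the most abundant of the 7 genes in each group, at 40.7 ± 1.37 CPM per kb in WT normoxia. In WT normoxia it was followed by CA2 with 7.45, SLC4A7 with 5.88, CA13 with 5.54, CA12 with 0.640, SLC4A4 with 0.237 and CA9 with 0.0389 CPM per kb. SLC4A7 and CA13 overlapped between libraries, and the other neighbors in this order did not. Under hypoxia, CA9 stood at 2.94 ± 0.239 CPM per kb, between SLC4A7 at 3.97 and CA12 at 0.935. In KO cells, CA2 with 5.01 CPM per kb came after SLC4A7 with 6.71 and CA13 with 6.23. With the longest transcript as the length, SLC4A7 and CA13 changed places in WT normoxia and in KO cells, and SLC4A2 was at 62.7 CPM per kb in WT normoxia.

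Among all 15 carbonic anhydrase genes of the table, CA2 and CA13 supplied most of the transcript, and CA9 was a sizable share under hypoxia. Summed over the family, the level was 15.4 ± 0.405 CPM per kb in WT normoxia, 18.6 ± 1.05 in WT hypoxia and 15.0 ± 0.362 in KO cells (SD, n = 4), with 14.9 to 15.9, 17.4 to 19.96 and 14.6 to 15.4 CPM per kb in single libraries. CA9 took between 0.151% and 0.357% of this sum in WT normoxia, between 15.2% and 16.2% in hypoxia and between 0.285% and 0.757% in KO cells. CA2 took 48.2% of the sum in WT normoxia, 40.9% in hypoxia and 33.4% in KO cells, and CA13 took 35.9%, 25.5% and 41.5%. In KO cells CA13 was thus the most abundant carbonic anhydrase transcript per length, in place of CA2. CA12 took 4.15%, 5.03% and 8.18% of the sum in the same order. These shares are given as a description and depend on the lengths used.

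**Figure D3:**
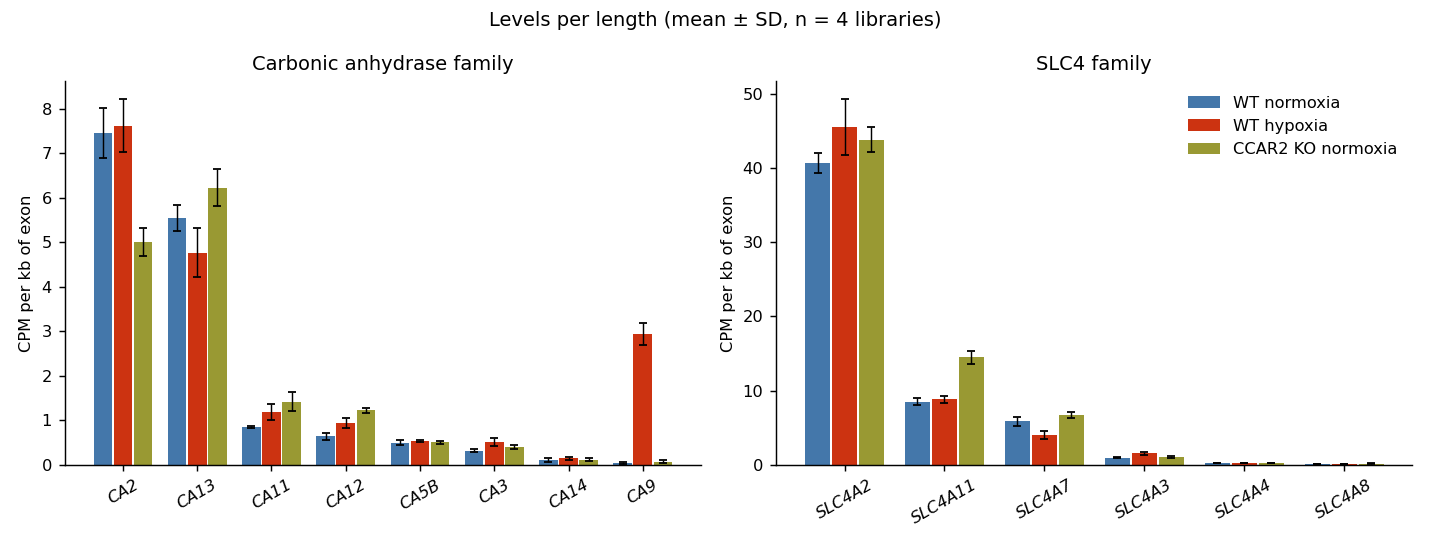
Mean level in CPM per kb of exon (vertical axis from 0) of the detected carbonic anhydrases (left) and SLC4 transporters (right) in the 3 groups, with error bars for the SD over 4 libraries. CA9 is visible in WT hypoxia alone at 2.94, CA2 falls below CA13 in KO cells, and SLC4A2 exceeds all other SLC4 genes, with SLC4A11 at 14.5 in KO cells.

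Of the other 11 carbonic anhydrase genes, CA3, CA5B, CA11 and CA14 had enough counts to be tested. CA3, a cytosolic isoenzyme best known from muscle, was called higher under hypoxia, from 0.732 ± 0.0922 to 1.16 ± 0.202 CPM (log2 fold change 0.66, SE 0.18). CA11, a secreted carbonic anhydrase-related protein without catalytic activity, was called higher in KO cells, from 1.74 ± 0.0474 to 2.93 ± 0.445 CPM (log2 fold change 0.75, SE 0.13). Its log2 fold change under hypoxia was 0.49 (adjusted p = 0.0243 from edgeR), under the limit. CA5B, a mitochondrial isoenzyme, and CA14, a further membrane isoenzyme, were called in no comparison. CA3 and CA14 were both at low levels.

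Of 18 other bicarbonate and anion exchangers, 11 could be tested in each comparison, and 2 were called higher under hypoxia, 2 higher in KO cells and 0 lower in either. Of all genes tested, 5.83% were called higher and 1.43% lower under hypoxia, and 6.73% and 2.94% in KO cells. With shares this small, 0 lower calls among 11 genes say little. By unadjusted p alone (under 0.05), 1 was lower under hypoxia and 0 were lower after CCAR2 loss. Of all genes tested, 3958 of 21776 and 4247 of 21410 were lower by that p. SLC4A3 (AE3), a chloride-bicarbonate exchanger like SLC4A2, was at 4.67 ± 0.316 CPM in WT normoxia and 7.78 ± 0.847 CPM in hypoxia, a log2 fold change of 0.73 (SE 0.10), and at 4.99 ± 0.729 CPM in KO cells. SLC4A11, a membrane transporter that moves protons or hydroxide rather than bicarbonate, was at 37.0 ± 1.92 CPM in WT normoxia, 38.4 ± 2.05 CPM in hypoxia and 62.9 ± 3.86 CPM in KO cells. Its log2 fold change in KO cells was 0.76 (SE 0.05, adjusted p = 7.37e-07 from edgeR). SLC26A1, a sulfate and anion exchanger, was called higher in both, with log2 fold changes of 0.57 under hypoxia and 0.93 in KO cells. In the direct comparison, SLC4A11 and SLC26A7 were higher and SLC4A3 was lower in KO cells than in hypoxia, with log2 fold changes of 0.71, 0.53 and -0.64.

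Proteins that sense acid outside the cell were the list with the most calls under hypoxia. Of 9 listed, 7 could be tested, 3 were called higher and 0 lower. By unadjusted p (under 0.05), 1 was lower, as were 3958 of all 21776 genes tested. Over all genes tested, 5.83% were called higher and 1.43% lower, so that 0 lower calls among 7 genes say little. GPR132, a receptor of the proton-sensing family, was at 1.02 ± 0.138 CPM in WT normoxia and 2.87 ± 0.448 CPM in hypoxia, a log2 fold change of 1.48 (SE 0.16). The acid-sensing ion channels ASIC3 and ASIC1 had log2 fold changes of 1.00 and 0.69 (SEs 0.12 and 0.08). GPR132 and ASIC3 were at 1.30 ± 0.259 and 3.10 ± 0.587 CPM in KO cells, and neither was called against WT normoxia.

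Among transporters that export acid, 1 was called under hypoxia. SLC16A3 (MCT4), which exports lactate with a proton, was at 308 ± 31.2 CPM in WT normoxia, 515 ± 19.7 CPM in hypoxia and 347 ± 18.3 CPM in KO cells. Its log2 fold change under hypoxia was 0.73 (SE 0.07, adjusted p = 9.69e-05 from edgeR), and it was the only gene called under hypoxia of 6 proton-coupled monocarboxylate transporters and chaperones. In KO cells the only one called was SLC16A8 (MCT3), named after its values were seen, at 0.326 CPM against 0.143 CPM in WT normoxia, on a mean of 32 counts. In WT hypoxia SLC16A8 was at 0.349 CPM, where a log2 fold change of 1.27 (adjusted p = 0.0714 from edgeR) was not called. Of 13 sodium-proton exchangers and cofactors tested under hypoxia, 0 were called in edgeR, and 5 were higher and 2 lower at an unadjusted p under 0.05. Among all 21776 genes tested, 7.26% were called in either direction, and 3721 were higher and 3958 lower at that unadjusted p. SLC9A7, an exchanger of the trans-Golgi network, was called higher in KO cells with 0.56 (SE 0.06), at 29.3 ± 0.937 CPM in WT normoxia and 43.1 ± 2.97 CPM in KO cells.

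Of 24 subunits and accessory proteins of the V-ATPase, the proton pump of lysosomes and some plasma membranes, 0 were called under hypoxia in edgeR. By unadjusted p (under 0.05), 4 were higher and 11 lower, with a median log2 fold change of -0.17 beside 0.01 over all genes tested. Most of these, in both directions, also had an adjusted p under 0.05 from edgeR and missed only the limit on the fold change. The numbers of all genes that pass by the adjusted p alone are given at the end. Of all 21776 genes tested, 7.26% were called in either direction, and 3721 were higher and 3958 lower by unadjusted p. In KO cells, 23 were tested, 2 were called higher and 1 lower, beside 6.73% and 2.94% of all genes tested. ATP6V0A4 and TCIRG1 encode alternative a subunits of the membrane sector. ATP6V0A4 was at 8.46 ± 0.652 CPM in WT normoxia and 4.32 ± 0.467 CPM in KO cells (log2 fold change -0.97, SE 0.10), while TCIRG1 was at 130 ± 4.50 and 191 ± 15.8 CPM (log2 fold change 0.55, SE 0.06). In WT hypoxia, ATP6V0A4 was at 10.4 ± 0.948 CPM and TCIRG1 at 170 ± 6.32 CPM. TCIRG1 thus also rose under hypoxia (log2 fold change 0.38, SE 0.05, adjusted p = 0.000465 from edgeR), under the fold limit. Between KO cells and hypoxia its log2 difference was 0.16 (adjusted p = 0.0634 from edgeR). The other gene called higher, ATP6V0D2, rests on a mean of 35 counts and was named after its values were seen.

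Among 7 regulators of bicarbonate transporters, WNK4, a kinase that acts on ion cotransporters, was called in opposite directions, at 6.13 ± 0.628 CPM in WT normoxia, 12.1 ± 2.14 CPM in hypoxia and 4.28 ± 0.205 CPM in KO cells. AHCYL2, a relative of the cotransporter activator AHCYL1 (IRBIT), was at 15.2 ± 0.292 CPM in WT normoxia, 12.2 ± 1.34 CPM in hypoxia and 35.3 ± 1.82 CPM in KO cells. Its log2 fold change in KO cells was 1.21 (SE 0.05, adjusted p = 2.17e-08 from edgeR). Over the 8 lists together, which hold 100 genes, 8 of 74 tested were called higher and 0 lower under hypoxia. By unadjusted p (under 0.05), 23 were higher and 18 lower, beside 3721 and 3958 of all 21776 genes tested. After CCAR2 loss, 9 of 72 were called higher and 2 lower. The shares over all genes tested were 5.83% higher and 1.43% lower under hypoxia, and 6.73% and 2.94% after CCAR2 loss. The medians of their log2 fold changes were -0.03 and 0.11, beside 0.01 and 0.01 over all genes tested.

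To find genes with a like pattern, log2 CPM profiles over the 12 libraries were centred on their own mean, and the root mean square (RMS) difference to each member was taken over 13683 genes with a symbol and a mean of at least 100 counts. For CA9, the nearest were PPFIA4, CDK18 and NDRG1, at RMS differences of 1.54, 1.57 and 1.59 log2 units, beside a standard deviation of 2.84 for CA9 itself over the libraries. PPFIA4, for example, was at 7.01 CPM in WT normoxia, 47.9 CPM in hypoxia and 8.57 CPM in KO cells. For CA12, they were C1QTNF6, LINC01002 and ADCY6, at 0.13, 0.13 and 0.15, and C1QTNF6 likewise stood lowest in WT normoxia (3.69 CPM), between in hypoxia (5.50 CPM) and highest in KO cells (7.63 CPM). For CA2, they were MED30, GADD45B and PDAP1, at 0.07, 0.07 and 0.08. For SLC4A7, they were SECISBP2L, FAM126A and SLC35D1, at 0.05, 0.06 and 0.06, with FAM126A at 60.5, 41.4 and 70.1 CPM in the same order of groups. CA13 was nearest to GLIPR1, STYX and CTBS at 0.04 to 0.05, and SLC4A2 to DNM2, SBNO2 and SUPT5H at 0.03 to 0.04. SLC4A4, whose own standard deviation over the libraries was 0.25, was nearest to RUSC1-AS1, FTX and MLLT11 at 0.12 to 0.15.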

How the data were processed

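RNA of 12 MDA-MB-231 libraries was analysed, with 4 each of WT normoxia, WT hypoxia and CCAR2 KO in normoxia, grouped by their titles. The deposited values are expected counts, whole-number estimated counts per gene that the authors made from cleaned paired-end poly-A reads with Hisat2 and StringTie and did not scale. The submitters' processing notes name HISAT2, SAMtools and featureCounts instead of StringTie, so how reads became counts is uncertain. The build and annotation are not given in the sources used here. Of 60664 identifiers, 58396 are in GENCODE v29 (GRCh38), which gave positions and lengths, and promoters came from RefSeq (GRCh38.p14). Sums per library were between 153904088 and 213743693 in WT normoxia, 76384973 and 195621872 in WT hypoxia and 68599412 and 152328450 in KO cells.

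The libraries of each pair of groups were fitted with edgeR 4.0.16 (R 4.3.3) with TMM, filterByExpr, glmQLFit and glmQLFTest, which was tested on simulated data. Standard errors are the absolute log2 fold change divided by the square root of F. Single genes were compared by exact permutation of log2 CPM. Same-numbered libraries had correlations of their deviations from group means between -0.02 and 0.07, and replicates of a group differed (chi-square over degrees of freedom from 13.0 to 87.2), so that numbers were not taken as pairs and no library as a duplicate. Alternatives were DESeq2 1.42.0, limma-voom 3.58.1, RLE and upper-quartile scaling, other filters, call rules and lengths, 1 fit over all libraries, a replicate block and each library left out.

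The members and lists were chosen with earlier results of these data known. Beside the members and CCAR2, genes were named from the lists if called and non-overlapping between groups at 100 or more mean counts, at most the 4 with the largest change per list and comparison, and as the 3 nearest profiles of each member. CA5B, CA14, SLC16A8, ATP6V0D2, ARHGEF39, CDK5, AC011773.3, AC010973.2 and the markers with values were named in addition. Exon overlaps were examined for the members alone. Protein sequences were not used here, and some genes of the lists are counted but not reported here by name.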

Additional observations from a re-analysis of the deposited data

Results flagged for a closer look

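In 5 of 78 groups of 4 libraries, 1 library stood apart from the others, with its gap to the nearest library as a share of the group's range above Dixon's 95% critical value for 4 values. Chance gives about 1 in 20, here 3.9 groups. No member was among them. The share was 0.841 for SLC26A1 in WT normoxia, where replicate 3 was lowest, and 0.863 for SLC4A11 in KO cells, where replicate 3 was highest at 68.7 CPM. For ATP6V0A4 in WT hypoxia it was 0.876, with replicate 3 lowest. For SLC26A7 it was 0.875 in WT hypoxia, with replicate 4 highest, and 0.865 in KO cells, with replicate 2 highest.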

How the results depend on the processing

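The calls of CA9 and SLC4A7 under hypoxia, of CA12 and CA2 in KO cells, and of CA9, CA2 and SLC4A7 between KO cells and hypoxia kept their direction and stayed past the threshold in DESeq2, limma-voom, both other scalings, without a filter, in 1 fit over all 12 libraries and with each library left out. With at least 10 counts required in every library, CA9 could not be tested, so that 1 member was called higher under hypoxia and 1 lower between KO cells and hypoxia. With libraries left out, the log2 fold change of CA12 under hypoxia was between 0.48 and 0.62, and 1 or 2 members were called higher. With RLE, the exact test of CA13 under hypoxia gave p = 0.0571. The 3 differences of SLC4A4 and that of CA2 under hypoxia, none of which passed the test, changed sign. SLC4A4 was at 0.0027, 0.010 and -0.00040 with upper-quartile scaling under hypoxia, in KO cells and between both, at 0.040 in limma-voom in KO cells, and, with libraries left out, between -0.13 and 0.046, -0.13 and 0.14, and -0.090 and 0.18. CA2 under hypoxia was between -0.013 and 0.073 with libraries left out. The replicate block changed no call of a member, and gave 1183 and 324 genes as calls in WT hypoxia in place of 1270 and 312. The log2 difference of SLC4A4 between KO cells and hypoxia was -0.0076 with the block.

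The adjusted p alone called 2518 genes higher and 2609 lower with hypoxia, 3199 and 3307 in KO cells, and 3628 and 3762 between both, with 2 members higher in KO cells and 3 between both. A fold limit of 1 on the log2 scale called 440 and 47 genes under hypoxia, 604 and 171 in KO cells, and 582 and 637 between both, with 1 member higher and 0 lower with hypoxia, 0 and 0 in KO cells, and 0 and 1 between both. With upper-quartile scaling, 192 genes were lower under hypoxia. The cause of these changes with scaling was not tested. Counts of 5 to 27 per normoxia library limit what can be said of CA9 in KO cells.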
